A study of Arabidopsis thaliana with 8 samples.

Results

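The genes of jasmonate biosynthesis were examined in leaf RNA of *Arabidopsis thaliana*. They are 10 genes, the lipoxygenases *LOX2*, *LOX3*, *LOX4* and *LOX6*, the allene oxide synthase gene *AOS*, the allene oxide cyclases *AOC1* to *AOC4* and the OPDA reductase *OPR3*. They were chosen by name from a list of gene identifiers, with earlier results of the comparisons with Col-0 known, and all 10 were among the 21960 genes of the deposited tables. The changes against Col-0 are therefore given as a description, and nothing is read from how many of the genes passed a threshold.

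The study asked which transcripts follow when the flowering regulator CONSTANS (CO) is impaired, by mutation or by an excess of a microProtein, a small protein that binds CO. RNA came from leaves of untreated plants in the Col-0 ecotype, 4 weeks old, grown in long days of 16 h light and 8 h dark at 20 °C by the sample labels. The 4 genotypes were Col-0 wild type, *co-SAIL*, a line labelled as a *constans* mutant, and *35S::miP1a* and *35S::miP1b*, which carry the FLAG-tagged microProtein genes *miP1a* and *miP1b* behind the viral 35S promoter, active in most tissues. Each genotype had 2 libraries, called technical replicates in the description of the series and 2 samples in the methods, so the spread between them may not hold the variation between plants. Whether each overexpression genotype was 1 transgenic line was not given in the sources used here. In bulk leaf RNA, fewer cells of a type and less RNA per cell cannot be told apart.

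Jasmonates are lipid hormones of wounding, insect attack and flower fertility. In the chloroplast, lipoxygenases add oxygen to linolenic acid, AOS turns the product into an unstable allene oxide, and the cyclases close the ring to give OPDA. OPR3 reduces OPDA in the peroxisome, where beta-oxidation shortens the side chain to jasmonic acid. The hormone is active as its conjugate with isoleucine, and the genes of its own synthesis are among the genes it induces in Arabidopsis leaves.

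The cyclase genes are shown first because *AOC1* and *AOC3*, the members with the largest changes, are among them. In the RefSeq annotation of TAIR10.1, *AOC1* (AT3G25760, chr3:9403779-9405338), *AOC2* (AT3G25770, chr3:9406669-9408071) and *AOC3* (AT3G25780, chr3:9409160-9411090) lie head to tail on the plus strand, with gaps of 1330 and 1088 bases and no protein-coding gene between them. *AOC4* (AT1G13280) lies apart, at chr1:4547388-4548894 on the plus strand. Each cyclase gene has 2 exons, and the proteins are 253 to 258 residues long. The 250 bases before the annotated starts of the neighbours are printed 5′ to 3′, for *AOC1* at chr3:9403529-9403778, for *AOC2* at chr3:9406419-9406668 and for *AOC3* at chr3:9408910-9409159. Capitals mark the T/G-box of *AOC1*, AACGTG read on the other strand, a motif bound by MYC-type factors of the jasmonate response. The other stretches hold none.
AOC1: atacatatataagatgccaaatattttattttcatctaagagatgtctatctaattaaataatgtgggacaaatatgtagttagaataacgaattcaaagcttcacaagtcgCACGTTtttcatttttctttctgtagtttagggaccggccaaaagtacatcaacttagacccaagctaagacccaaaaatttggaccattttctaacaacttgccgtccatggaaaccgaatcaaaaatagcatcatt
AOC2: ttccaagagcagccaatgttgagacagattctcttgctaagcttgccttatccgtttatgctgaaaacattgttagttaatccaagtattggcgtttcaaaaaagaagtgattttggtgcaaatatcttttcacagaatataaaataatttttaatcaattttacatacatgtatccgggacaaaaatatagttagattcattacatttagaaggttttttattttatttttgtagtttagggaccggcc
AOC3: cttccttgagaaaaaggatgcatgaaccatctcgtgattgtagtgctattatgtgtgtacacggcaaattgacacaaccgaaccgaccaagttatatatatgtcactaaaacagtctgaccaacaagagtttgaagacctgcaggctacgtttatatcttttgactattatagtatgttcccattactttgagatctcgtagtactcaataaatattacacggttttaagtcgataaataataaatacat
The stretches before *AOC1* and *AOC2* share an unbroken run of 19 bases, tgtagtttagggaccggcc, which ends 99 bases before the start of *AOC1* and directly at the start of *AOC2*. On the same strand, the longest run shared by *AOC3* and *AOC1* was 8 bases, and by *AOC3* and *AOC2* 9 bases.

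Both motifs of the jasmonate response, the G-box CACGTG and the T/G-box AACGTG, were searched on both strands from 250 bases before to 50 bases after each start. The motifs differ in their first letter, so no stretch can be both at once. A G-box was in the window of *AOS* alone, and a T/G-box in those of *LOX3*, *LOX4*, *AOC1* and *AOC2*. Either motif was thus in 5 of 10 members, against 15.77% of 27443 windows of protein-coding genes (G-box 7.68%, T/G-box 8.95%). The T/G-box of *AOC1* begins 138 bases before the start and that of *LOX4* 94 bases before it. Those of *LOX3* and *AOC2* fall behind the start, at bases 19 and 41. The upstream stretches of *AOS* (chr5:17099596-17099845, minus strand), whose G-box ends directly at the start, and of *LOX4* (chr1:27308263-27308512, plus strand) are given for comparison, with the motifs in capitals.
AOS: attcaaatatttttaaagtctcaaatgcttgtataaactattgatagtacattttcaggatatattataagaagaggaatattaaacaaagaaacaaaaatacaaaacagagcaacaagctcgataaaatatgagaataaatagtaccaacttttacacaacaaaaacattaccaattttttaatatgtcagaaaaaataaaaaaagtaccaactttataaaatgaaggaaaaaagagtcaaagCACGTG
LOX4: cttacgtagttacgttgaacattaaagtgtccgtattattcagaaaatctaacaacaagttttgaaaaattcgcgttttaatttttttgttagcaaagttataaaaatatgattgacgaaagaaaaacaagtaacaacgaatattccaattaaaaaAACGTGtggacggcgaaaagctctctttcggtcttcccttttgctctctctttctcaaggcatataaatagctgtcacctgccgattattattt
*AOC3*, with the widest change of all members, had neither motif in its window. A match is a description of the letters and not a site of binding.

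Similar sequence limits how reads can be assigned. The coding sequences of *AOC1* and *AOC2* were 90.3% identical, those of *AOC1* and *AOC3* 81.7%, and those of *LOX3* and *LOX4* 80.2%. Of the 40-base windows of the *AOC1* transcript, 3.6% were identical in another cyclase transcript and 25.2% were within 2 mismatches of one. For *AOC3* the shares were 2.8% and 7.6%, and for *AOC4* 0.0% and 0.7%. How reads that fit several genes were counted is not given in the sources used here, so the split of reads between *AOC1* and *AOC2* is uncertain. *LOX3* and *LOX4* shared no identical window, and 0.9% of their windows were within 2 mismatches.

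The recovered libraries held 13079134 to 16636216 reads in genes, or 14696808 to 18884723 effective reads after the authors' scaling, and CPM below are counts-per-million of these effective reads. Libraries are called the larger and the smaller of a genotype, as the tables do not link them to the labelled numbers. The microProtein transcripts matched their labels: *miP1a* stood at 3701 CPM in *35S::miP1a* and at 0.363 to 0.791 CPM elsewhere, and *miP1b* at 1046 CPM in *35S::miP1b* and at 0.0316 to 0.119 CPM elsewhere. *CO* stood at 5.57 CPM in *co-SAIL*, which below means the libraries with that label, and at 4.92 CPM in Col-0, a log2 change of 0.18 ± 0.23 (SE). Its transcript level therefore does not check the mutant label. The leaf markers *RBCS1A* and *RCA* reached 19960 to 23724 and 8463 to 9068 CPM in the genotypes, and *LHCB2.1*, also a leaf marker, 20.1 to 54.0 CPM. Of the markers of other organs, 5 of the flower summed to 0.419 to 0.696 CPM, 2 of the root to 2.87 to 4.81 CPM and 1 of the seed to at most 0.0597 CPM. Of the root sum, *GL2* held 2.68 to 4.59 CPM and *PYK10* at most 0.363 CPM. The sum is thus mostly *GL2* and is not read as root tissue in the samples. The 2 libraries of a genotype differed beyond counting error, with a dispersion of 0.0172 in *35S::miP1a* to 0.0445 in Col-0, above the 0.0132 of the authors' fit that the test used. Calls made at 0.0132 are therefore too many. The second test below, limma-trend on the 8 libraries, takes the spread between the libraries of a genotype as its error.

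Per length of exon, *LOX2* was the most abundant member, at 569 CPM per kb over all libraries, and 125 of 21911 genes with a length exceeded it. *AOS* followed at 267 and *AOC2* at 246 CPM per kb. The other members lay far below, at 35.8 CPM per kb for *OPR3*, 28.4 for *AOC4*, 18.7 for *AOC1*, 12.7 for *LOX6*, 5.46 for *LOX3*, 4.34 for *LOX4* and 3.03 for *AOC3*. *LOX2* thus supplied 94.6% of the transcripts per length of the 4 lipoxygenase members in Col-0, and *AOC2* 81.6% of the cyclase transcripts.

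**Figure D1:**
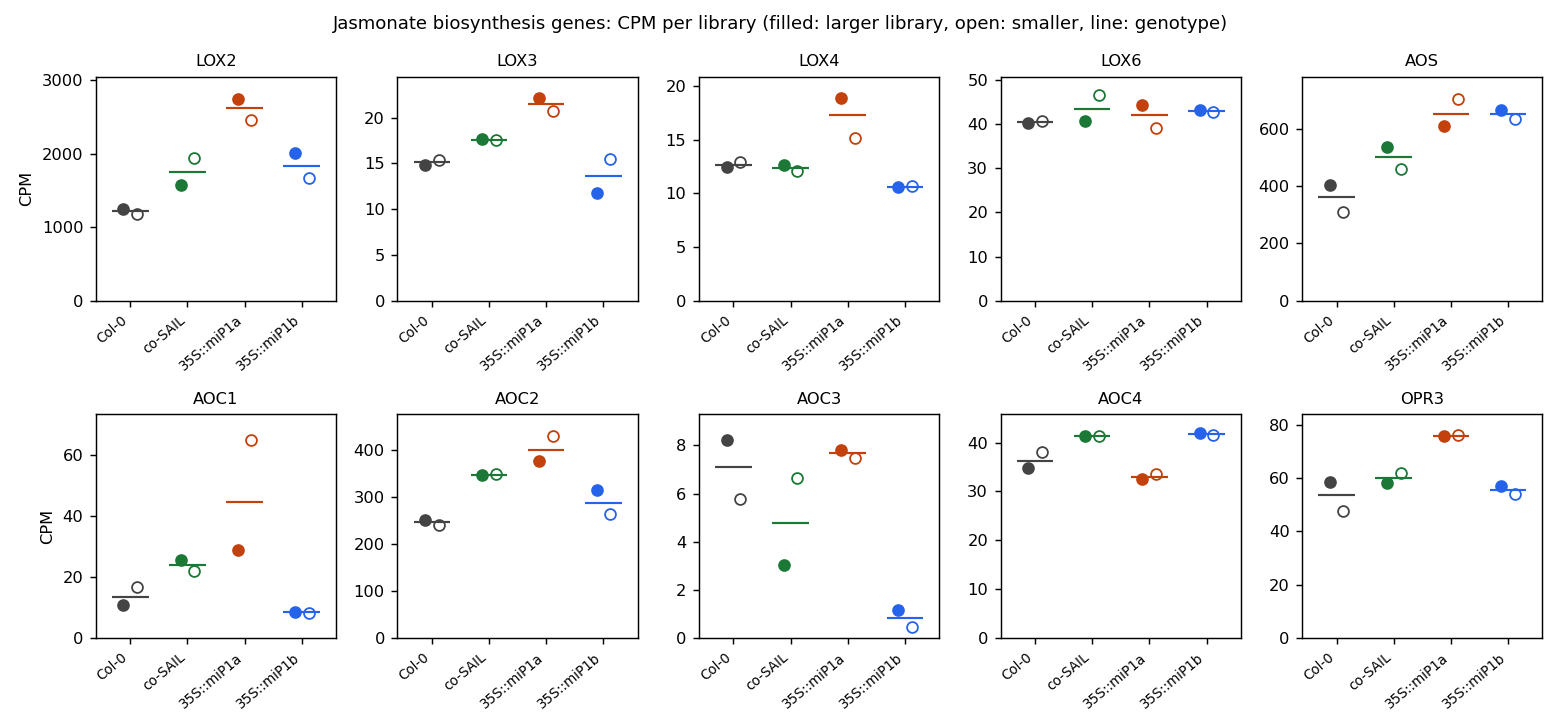
CPM (vertical axis, from 0, a scale of its own for each gene) of the 10 jasmonate biosynthesis genes in the 8 libraries. Filled points are the larger and open points the smaller library of a genotype, and the line is the value of both together; *LOX2* is highest in *35S::miP1a* (2737 and 2461 CPM) and *AOC3* lowest in *35S::miP1b* (1.16 and 0.451 CPM).

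*LOX2* (AT3G45140, chr3:16525245-16529352) encodes the chloroplast lipoxygenase behind most of the jasmonate made early in wounded Arabidopsis leaves. It stood at 1247 and 1176 CPM in Col-0, 1570 and 1934 in *co-SAIL*, 2737 and 2461 in *35S::miP1a* and 2006 and 1665 in *35S::miP1b*. Every library of the other genotypes lay above both Col-0 libraries, and both *35S::miP1a* libraries above all others. The log2 changes against Col-0 were 0.52 ± 0.17 (SE) in *co-SAIL*, 1.11 ± 0.17 in *35S::miP1a*, or 2.15-fold, and 0.60 ± 0.17 in *35S::miP1b*. The libraries of *35S::miP1b* and *co-SAIL* overlapped.

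*LOX3* (AT1G17420) and *LOX4* (AT1G72520) are a close pair, with proteins 84.2% identical, that acts in male fertility and in the wound response of Arabidopsis. *LOX3* had 14.8 and 15.4 CPM in Col-0, 17.7 and 17.5 in *co-SAIL*, 22.1 and 20.7 in *35S::miP1a* and 11.8 and 15.5 in *35S::miP1b*. *LOX4* had 12.5 and 12.9 CPM in Col-0, 12.7 and 12.1 in *co-SAIL*, 18.9 and 15.2 in *35S::miP1a* and 10.6 and 10.7 in *35S::miP1b*. Both were highest in *35S::miP1a*, by log2 changes of 0.51 ± 0.19 and 0.45 ± 0.19 against Col-0. In *35S::miP1b* their changes were -0.15 ± 0.19 and -0.26 ± 0.19, with 95% intervals that include 0. *LOX6* (AT1G67560), a lipoxygenase with a role in the first minutes after wounding, lay between 39.1 and 46.6 CPM in all 8 libraries. Its 3 changes against Col-0 were 0.06 to 0.10, each with an SE of 0.17, and all neighbours in its order of genotypes overlapped.

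*AOS* (AT5G42650, chr5:17097564-17099595, minus strand) is the only allene oxide synthase gene of Arabidopsis and has a single exon. Its levels were 404 and 310 CPM in Col-0, 537 and 460 in *co-SAIL*, 610 and 702 in *35S::miP1a* and 666 and 634 in *35S::miP1b*. All 6 libraries of the other genotypes were above Col-0. Both overexpression genotypes reached 650 CPM, 1.80-fold of Col-0 (log2 change 0.85 ± 0.17 in each), and differed from each other by 0.00 on the log2 scale (95% interval -0.33 to 0.33). In *co-SAIL* the change was 0.47 ± 0.17. The call of *AOS* described below is lost in *35S::miP1a* without its smaller library and in *35S::miP1b* without its larger one, and in both without the smaller Col-0 library.

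The cyclase genes differed in direction. *AOC1* stood at 10.9 and 16.6 CPM in Col-0, 25.4 and 22.1 in *co-SAIL*, 28.8 and 65.0 in *35S::miP1a* and 8.64 and 8.07 in *35S::miP1b*. No 2 genotypes overlapped, but the libraries of *35S::miP1a* differed 2.26-fold and those of Col-0 1.52-fold. Against Col-0 the log2 changes were 0.82 ± 0.19 in *co-SAIL*, 1.73 ± 0.18 in *35S::miP1a* and -0.69 ± 0.20 in *35S::miP1b*. These SEs use the common dispersion, and in limma-trend the SE of each was 0.30. Without the smaller *35S::miP1a* library the change in that genotype was 1.09, and without the larger one 2.27. The change in *co-SAIL* was 0.71 without its larger library, 0.91 without its smaller one and 0.52 without the larger Col-0 library, and in each case was no longer called. In *35S::miP1b* it was -0.99 without the larger Col-0 library, which adds a call, and -0.38 without the smaller one.

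*AOC2*, the main cyclase transcript of these leaves, had 251 and 240 CPM in Col-0, 346 and 349 in *co-SAIL*, 377 and 431 in *35S::miP1a* and 314 and 263 in *35S::miP1b*. Every library of the other genotypes exceeded both Col-0 libraries. The changes were 0.50 ± 0.17, 0.70 ± 0.17 and 0.23 ± 0.17, the last with an interval from -0.10 to 0.56. The call in *35S::miP1a* is lost when any 1 of the 4 libraries compared is left out. *AOC1* and *AOC2* thus lay on the same side of Col-0 in *co-SAIL* and *35S::miP1a* and on opposite sides in *35S::miP1b*.

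*AOC3* had the lowest level of the members. Its reads numbered 155 and 90 in Col-0, 50 and 101 in *co-SAIL*, 147 and 110 in *35S::miP1a* and 21 and 8 in *35S::miP1b*. As CPM these were 8.21 and 5.76, 3.05 and 6.63, 7.81 and 7.48, and 1.16 and 0.451. Both *35S::miP1b* libraries were below the other 6, which overlapped apart from *35S::miP1a* over *co-SAIL*. The log2 change of *35S::miP1b* against Col-0 was -3.13 ± 0.33 (95% interval -3.77 to -2.49), the only member past the 4-fold minimum in a comparison with Col-0. It was -3.98 without the larger *35S::miP1b* library and -2.61 without the smaller one. In *35S::miP1a* the change was 0.11 ± 0.21 and in *co-SAIL* -0.57 ± 0.22, which became -0.10 without the larger *co-SAIL* library and -1.22 without the smaller one. These SEs use the common dispersion, and in limma-trend the SE of each *AOC3* change was 0.44.

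*AOC4* had 34.9 and 38.0 CPM in Col-0, 41.3 and 41.4 in *co-SAIL*, 32.5 and 33.5 in *35S::miP1a* and 41.9 and 41.5 in *35S::miP1b*. It was the member whose level was lowest in *35S::miP1a*, though its changes of 0.19 ± 0.18, -0.14 ± 0.18 and 0.20 ± 0.17 all had intervals that include 0. Summed per length, the 4 cyclases reached 233 and 230 CPM per kb in the Col-0 libraries, 320 and 322 in *co-SAIL*, 343 and 416 in *35S::miP1a* and 280 and 240 in *35S::miP1b*. The share of *AOC1* in this sum was 3.92% and 6.05% in Col-0, 7.04% and 13.1% in *35S::miP1a*, and 2.59% and 2.82% in *35S::miP1b*. *AOC2* kept 79.8% to 86.0% in all libraries.

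**Figure D2:**
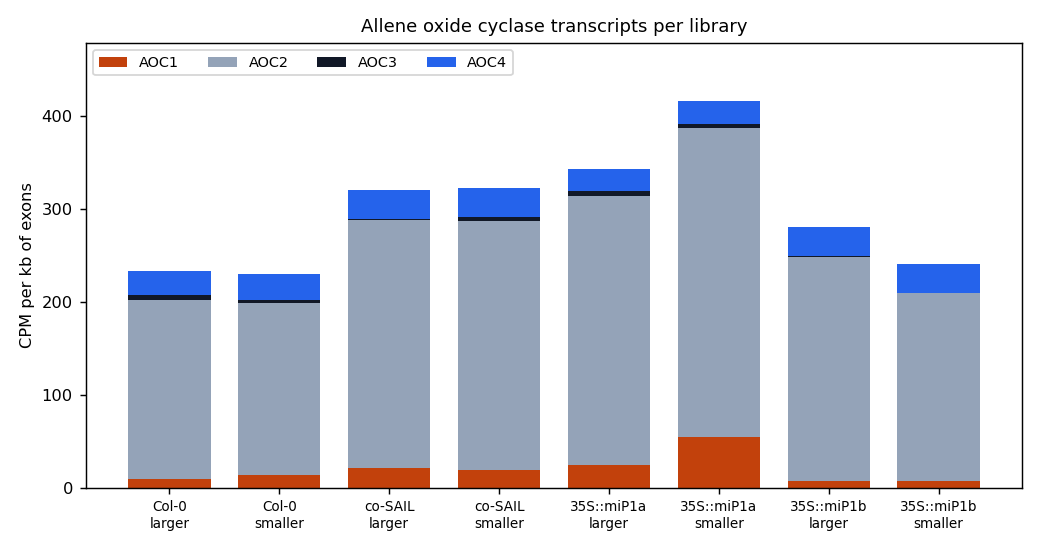
Stacked CPM per kb of exons (vertical axis, from 0) of the 4 allene oxide cyclase genes in each of the 8 libraries (horizontal axis, 2 per genotype). *AOC2* makes up 79.8% to 86.0% of every bar, and the *AOC1* segment is tallest in the smaller *35S::miP1a* library, at 13.1%.

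*OPR3* (AT2G06050, chr2:2359114-2362375, minus strand), the peroxisomal OPDA reductase needed for male fertility, had 58.6 and 47.6 CPM in Col-0, 58.1 and 62.0 in *co-SAIL*, 75.6 and 76.2 in *35S::miP1a* and 56.9 and 54.1 in *35S::miP1b*. Both *35S::miP1a* libraries were above all others. The changes against Col-0 were 0.16 ± 0.17, 0.50 ± 0.17 and 0.05 ± 0.17.

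Across the 10 members, the highest genotype was *35S::miP1a* for 8, *35S::miP1b* for *AOC4* and *co-SAIL* for *LOX6*, while Col-0 was lowest for 5 and *35S::miP1b* for 4. Some of these places are near ties. *AOS* was at 650 CPM in both overexpression genotypes, and *AOC3* in *35S::miP1a* overlapped Col-0. For *LOX6* and *OPR3* Col-0 overlapped the next genotype, as *35S::miP1b* did for *LOX3*. The orders were not counted over all genes, so nothing is read from them. The 3 comparisons with Col-0 share its 2 libraries, so their directions are not independent. In *co-SAIL* against Col-0, 1 of 10 members (*AOC1*, higher) passed an adjusted p of 0.001 in the likelihood ratio test, beside 1.21% of all genes, of which 45 were higher and 221 lower. In *35S::miP1a*, 4 members (*LOX2*, *AOS*, *AOC1*, *AOC2*) passed, all higher, beside 3.53% of genes, 440 higher and 335 lower. In *35S::miP1b*, *AOS* passed as higher and *AOC3* as lower, beside 4.85% of genes, 234 higher and 831 lower. With the 4-fold minimum of the study as well, 0, 0 and 1 members passed in *co-SAIL*, *35S::miP1a* and *35S::miP1b*, beside 0.246%, 0.883% and 1.51% of genes in either direction. The median log2 change of the members was 0.21, 0.51 and 0.07, against 0.00, -0.01 and 0.00 over the 17047 genes with at least 1 CPM. The libraries of the genotype did not overlap those of Col-0 for 6, 8 and 8 members, beside 35.8%, 54.0% and 55.9% of the 17002 genes with at least 1 CPM and reads for each library.

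With the spread between libraries as error, limma-trend at an adjusted p below 0.05 called 0 members in *co-SAIL*, beside 0.518% of genes. At an unadjusted p below 0.05, 4 members passed in limma-trend, beside 10.3% of genes, and 5 in the likelihood ratio test, beside 12.7%. At an adjusted p below 0.05, limma-trend called 5 in *35S::miP1a* (*LOX2*, *AOS*, *AOC1*, *AOC2*, *OPR3*), beside 4.07%. In *35S::miP1b* limma-trend called 3 (*LOX2* and *AOS* upwards, *AOC3* downwards), beside 10.2%. At a dispersion of 0.04, within the range measured between libraries, the calls left against Col-0 at an adjusted p of 0.001 were *AOC1* in *35S::miP1a* and *AOC3* in *35S::miP1b*.

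**Figure D3:**
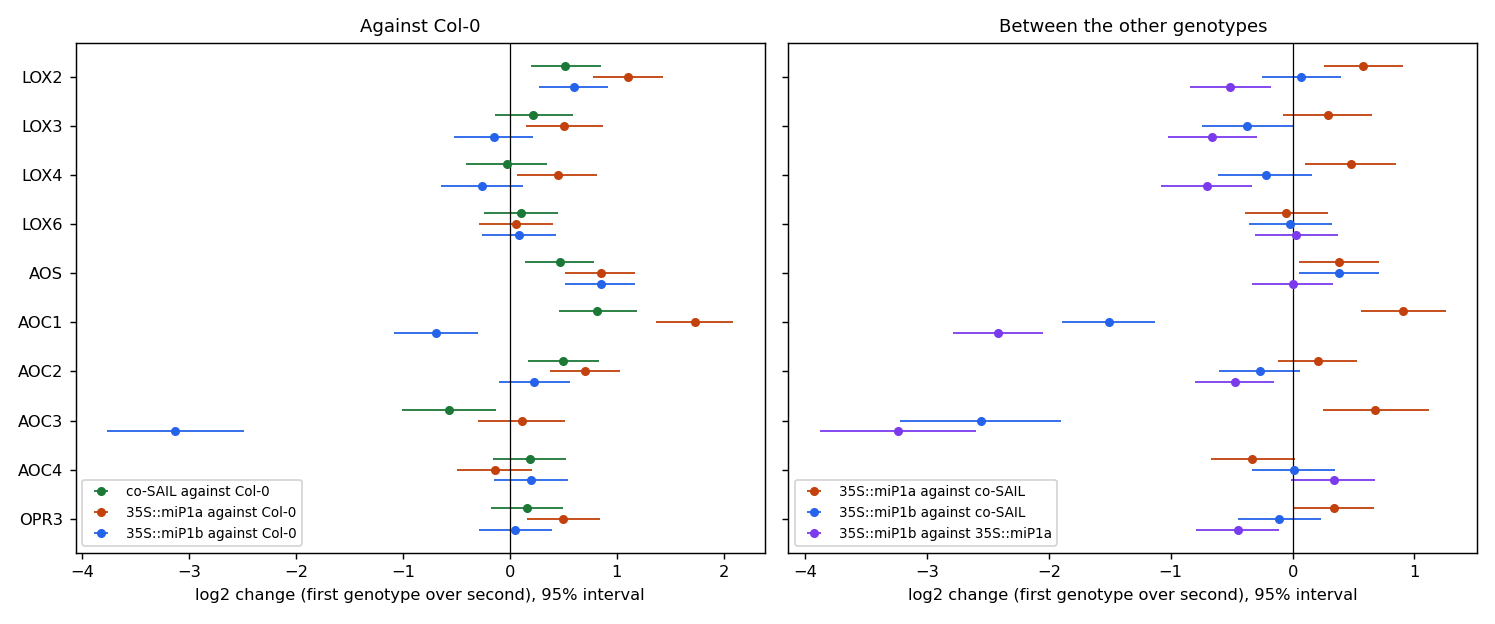
Log2 change (horizontal axis, first genotype over second) of each jasmonate biosynthesis gene with its 95% interval from counting error and the common dispersion of 0.0132. The left panel has the 3 genotypes against Col-0 and the right panel the genotypes against each other; *AOC1* lies at 1.73 in *35S::miP1a* and -0.69 in *35S::miP1b*, and *AOC3* at -3.13 in *35S::miP1b*.

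Setting the genotypes against each other leaves Col-0 out. Between *35S::miP1b* and *35S::miP1a*, *AOC1* was lower in *35S::miP1b* by a log2 change of -2.42 ± 0.19 and *AOC3* by -3.24 ± 0.33, while *LOX3* and *LOX4* differed by -0.66 ± 0.19 and -0.70 ± 0.19. The change in *AOC1* was -1.78 without the smaller *35S::miP1a* library and -2.96 without the larger one, and that in *AOC3* was -4.09 without the larger *35S::miP1b* library and -2.72 without the smaller one. At an adjusted p of 0.001, 2 members were called (3.21% of genes), and limma-trend at 0.05 called 5 (3.36%), adding *LOX3*, *LOX4* and *AOC2*. In *35S::miP1a* against *co-SAIL*, *AOC1* was higher by 0.91 ± 0.18 and *LOX2* by 0.58 ± 0.17. The likelihood ratio test called *AOC1* (3.38% of genes) and limma-trend *LOX2* in its place (3.90%). The *AOC1* change was 0.27 without the smaller *35S::miP1a* library, 1.45 without the larger one and 0.81 without the smaller *co-SAIL* library. Its call is lost without either smaller library, and without the smaller *co-SAIL* library *AOC3* is called in its place (1.33). In *35S::miP1b* against *co-SAIL*, *AOC1* was lower by -1.51 ± 0.19 and *AOC3* by -2.56 ± 0.34, the 2 members called by either test (2.51% and 4.59% of genes). The *AOC3* change was -3.40 without the larger *35S::miP1b* library, -2.04 without the smaller one, -3.03 without the larger *co-SAIL* library and -1.91 without the smaller one, and was called in each case.

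The rest of the pathway was examined as a list of 37 further genes, from the fatty acids that feed it to the turnover of the hormone, of which 35 were in the tables and *DGL* and AT3G11180 are not analysed here. In *co-SAIL*, 0 of 35 passed an adjusted p of 0.001 in the likelihood ratio test, beside 1.21% of all genes. Of the 27 that limma-trend tested, 0 passed 0.05, beside 0.518% of genes. At an unadjusted p below 0.05, 4 passed in the likelihood ratio test and 2 in limma-trend, beside the same 12.7% and 10.3% of genes. At the adjusted p of 0.001 in the likelihood ratio test, 7 passed upwards and 0 downwards in *35S::miP1a*. In *35S::miP1b* 0 passed upwards and 1 downwards, each beside the counts of all genes given above. At an unadjusted p below 0.05, 12 passed in *35S::miP1a* in the likelihood ratio test (22.3% of genes) and 10 in limma-trend (21.3%). For *35S::miP1b* these were 14 (26.0%) and 9 (27.1%). The median log2 change of the list was 0.15, 0.25 and 0.18, over the genes with reads in both genotypes compared. This leaves out, among others, *ST2A* and *JRG21*, which had no read in Col-0. None of the 10 genes of beta-oxidation, the 4 of fatty acid supply, the 3 of OPDA transport and activation, *OPR1* and *OPR2*, *JAR1* and *JMT*, *ABCG16* and *ORA47* passed an adjusted p of 0.001 in any of the 3 comparisons. With 1.21%, 3.53% and 4.85% of all genes called, groups of this size can hold no call, so nothing is read from this. *JAR1*, which joins jasmonic acid to isoleucine and was picked after its values were seen, lay between 74.6 and 93.7 CPM in all libraries. The lipase gene *DAD1*, which acts in anthers, had at most 2 reads in any genotype.

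Of the genes that passed, 2 belong to lipid oxidation beside the main route. *LOX1*, a lipoxygenase of the other positional type, rose from 11.2 and 16.9 CPM in Col-0 to 29.7 and 23.5 in *35S::miP1a*, a log2 change of 0.97 ± 0.19 (adjusted p = 9.3e-06, and 0.036 in limma-trend). Its call at 0.001 is lost without the larger *35S::miP1a* library (0.77) or the larger Col-0 library (0.68). *HPL1*, a hydroperoxide lyase that draws on the same substrate as AOS to make leaf volatiles, rose from 42.9 and 43.3 CPM to 111 and 95, by 1.27 ± 0.17 (adjusted p = 4.7e-11, and 4.7e-04 in limma-trend). The reference annotation notes that the Columbia gene carries a deletion. Whether these plants make an active enzyme from the transcript was not tested, so its rise is not read as a rise of the enzyme. *HPL1* in *35S::miP1b* stood at 73.2 and 61.2 CPM, above both Col-0 libraries (adjusted p = 0.0034, above the threshold of 0.001).

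The other 6 belong to hormone turnover, the steps that modify or take apart jasmonic acid and its conjugate. *IAR3* and *ILL6*, amidohydrolases that cleave the conjugate, rose in *35S::miP1a* by 0.76 ± 0.17 (32.3 and 35.2 to 55.9 and 58.4 CPM, adjusted p = 4.6e-04) and 1.05 ± 0.21 (5.56 and 4.29 to 10.2 and 10.4 CPM, adjusted p = 4.3e-05). The *ILL6* call is lost in limma-trend (adjusted p = 0.13), and without either *35S::miP1a* library or the smaller Col-0 library (0.89 to 1.06). The *IAR3* call is lost when any 1 library is left out (0.69 to 0.82). AT5G05600 rose from 2.91 and 5.12 to 19.7 and 10.1 CPM, by 1.99 ± 0.22 (adjusted p = 6.1e-18, and 0.033 in limma-trend, where its SE was 0.43). Its change was 1.37 without the larger *35S::miP1a* library. For *ST2A*, a sulfotransferase of hydroxylated jasmonate, no read was found in Col-0, while the *35S::miP1a* libraries held 15 and 10 (adjusted p = 5.7e-07), at least 8.58-fold higher when 3 reads over the genotype are taken as the floor of Col-0. *JRG21*, named as a jasmonate-regulated gene, was likewise without a read in Col-0 and had 51 in *35S::miP1a* (adjusted p = 1.8e-13), at least 17.5-fold higher. Of these 51 reads, 48 were in the larger library and 3 in the smaller, so that 1 library decides the value. Limma-trend, fitted to genes with at least 1 CPM, tested neither *ST2A* nor *JRG21*. Their calls rest on the likelihood ratio test alone and are not shown to hold when a library is left out. *CYP94C1*, an oxidase of the hormone conjugate, fell from 29 reads over the Col-0 libraries to 2 over those of *35S::miP1b*, a ratio of 0.0665 (95% counting interval 0.00769 to 0.263), and numbered 36 in *35S::miP1a*. It is the gene called downwards (adjusted p = 8.2e-06), a call lost without the smaller *35S::miP1b* library (log2 change -2.92) or the smaller Col-0 library (-3.38).

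**Figure D4:**
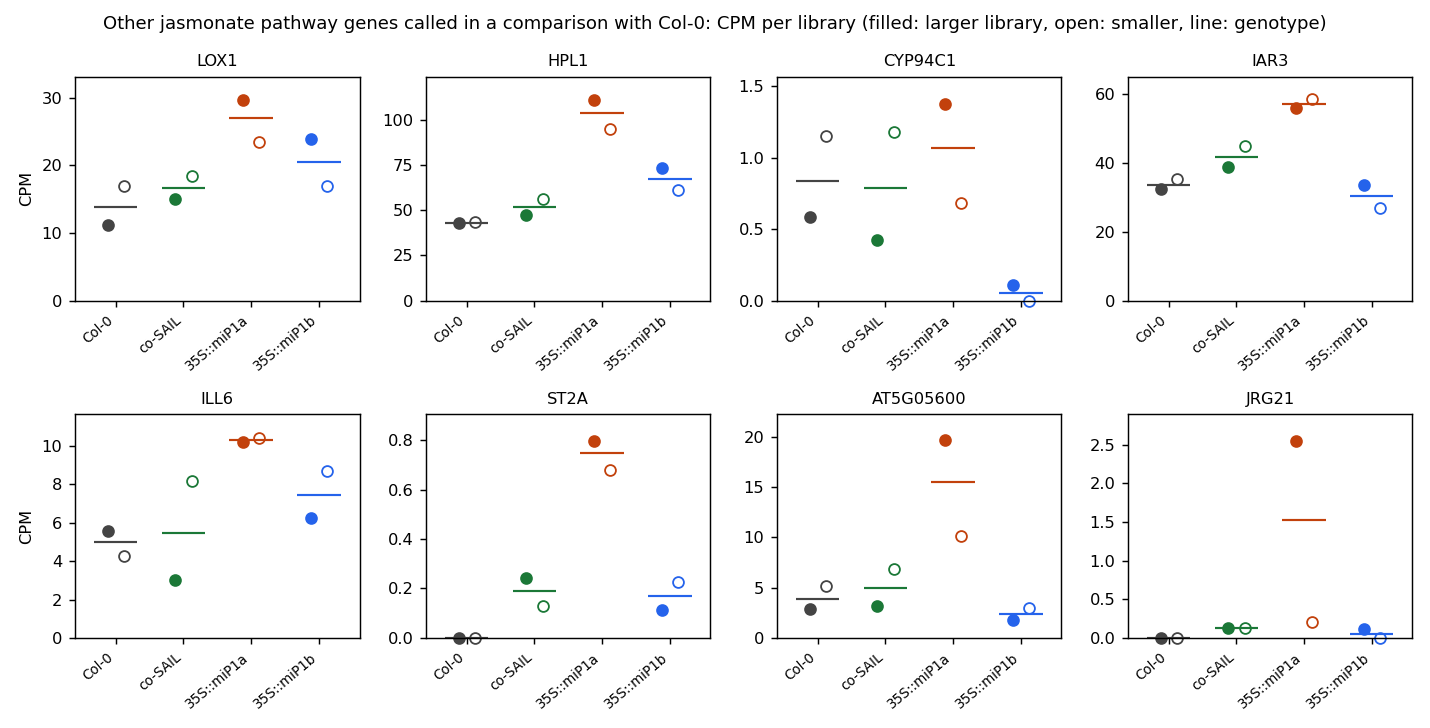
CPM (vertical axis, from 0, a scale of its own for each gene) of the 8 other jasmonate pathway genes that passed an adjusted p of 0.001 in a comparison with Col-0. Filled points are the larger and open points the smaller library, and the line is both together; 7 of the 8 were selected by being called higher in *35S::miP1a*, so that their place there restates the selection, and *CYP94C1* is at 0.111 and 0 CPM in *35S::miP1b*.

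Genes of other responses differed between the genotypes, and their part in the results was not tested. The 10 genes induced within minutes of touch or wounding summed to 531 and 504 CPM in Col-0, 394 and 415 in *co-SAIL*, 342 and 442 in *35S::miP1a* and 256 and 271 in *35S::miP1b*. A large part of each sum was *TCH3* alone. It held 264 and 256 CPM in Col-0, 174 and 180 in *co-SAIL*, 122 and 163 in *35S::miP1a* and 98.0 and 111 in *35S::miP1b*. In *35S::miP1b*, where *AOC3* and *CYP94C1* were low, 5 of the 10 were called lower and 0 higher, beside the 4.85% of all genes called, 831 of them lower. Among these 5 were *WRKY40* (-2.55 ± 0.29) and *ZAT10* (-1.44 ± 0.21), with SEs of 0.45 and 0.22 in limma-trend. In *35S::miP1a*, where *LOX2*, *AOS* and *AOC1* were high, 2 were lower, *TCH3* and *CAF1A*, and 0 higher, beside the 3.53% of all genes called, 335 of them lower. In limma-trend the adjusted p was 0.0038 for *TCH3* and 0.054 for *CAF1A*. The genes did not all fall there: *ZAT12* was higher by 0.77 ± 0.22 without a call, and the median log2 change of the 10 was -0.25. *WRKY40* stood at 4.04 CPM in the larger *35S::miP1a* library and at 14.4 CPM in the smaller one. The 8 clock genes summed to 159 to 227 CPM in the libraries, of which *TOC1* alone held 102 to 153 CPM. In *35S::miP1a* the morning genes *CCA1* (2.02 ± 0.27) and *LHY* (1.64 ± 0.24) were higher and *ELF4* lower (-0.79 ± 0.18), and in *35S::miP1b* *ELF4* was lower (-0.91 ± 0.18). The limma-trend SE in *35S::miP1a* was 0.42 for *CCA1* and 0.25 for *LHY*. The leaf marker *LHCB2.1* was higher in *35S::miP1a* (1.43 ± 0.18). Of the markers of other organs, 1 was called, *PYK10* of the root, at 0.363 CPM in *35S::miP1b*, where 12 of its 13 reads were in the larger library.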

How the data were processed

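RNA of 8 leaf libraries, 2 for each of 4 genotypes, was measured by RNA-seq. According to the methods and the submitters' processing notes, the authors clipped reads with Trimmomatic 0.32, mapped them to TAIR10 with Bowtie in RobiNA and fitted edgeR 2.6.12 to counts per gene. The deposited tables, 1 per comparison with Col-0, hold the authors' log2 fold change, log2 mean CPM, a likelihood ratio (a score), p-value and FDR for 21960 genes. The authors' p-value and FDR columns were not used, and the fold change, mean and likelihood ratio served to recover the reads behind them. The authors' normalization enters through the effective library sizes.

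The tables follow from 1 model with a common dispersion of 0.0132 and a prior of 0.5 reads. Since the libraries of a genotype differ in size, the log2 values fix the reads of each library. Sizes and dispersion were first set from the 353 genes with 1 read in all and then refitted on genes with more reads. Reads per library were solved as whole numbers for 21915 genes, 21908 with a single solution and 7 chosen by the likelihood ratio, which was matched within 1e-05 in 99.98% of them. For 45 genes, none a member, reads per genotype came from the rates. Recovered libraries cannot be linked to the replicate numbers of the labels. The recovery and both tests were tried on simulated reads drawn at the dispersion of 0.0132. As the libraries spread more than that, the simulation does not give the rate of false calls in these data.

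Reads summed per genotype were compared with a negative binomial likelihood ratio test at 0.0132, with Benjamini-Hochberg adjustment over 21960 genes. A call is an adjusted p below 0.001, with or without a 4-fold minimum. SEs and 95% intervals cover counting error and this dispersion. Limma-trend (limma 3.58.1) was fitted to log2 CPM (0.5 reads added) of 17002 genes with at least 1 CPM and was chosen after seeing the data, as was leaving out libraries for the counts of calls. Named genes are the 10 members, further pathway genes called in any comparison with Col-0 or with 3 or fewer reads in every genotype, and CO, miP1a and miP1b. Marker and response genes were taken from fixed lists, the called ones with the largest changes named after their values were seen. The members and lists were chosen with earlier results of these data known.

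Positions, exons and promoters come from the RefSeq annotation of TAIR10.1, joined by locus tag, which gave a length for 21911 genes. The tables carry no coordinates.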

Additional observations from a re-analysis of the deposited data

Results flagged for a closer look

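When the overexpression genotypes were set against each other, *AOC1* and *AOC3* differed at an adjusted p below 0.001 (likelihood ratio test on summed reads, adjusted over all genes). *AOC1* was lower in *35S::miP1b* by a log2 change of -2.42, with 541 and 955 reads in the libraries of *35S::miP1a* and 156 and 143 in those of *35S::miP1b*. *AOC3* was lower by -3.24, with 147 and 110 reads against 21 and 8. Both genes were picked with earlier results of these data known, so the test is no independent support.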

How the results depend on the processing

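No paired analysis was possible because the recovered libraries carry no replicate numbers. Centring on the median gene, scaling by the sum of recovered reads and keeping the prior count moved no member's log2 change by more than its SE and changed no direction of a called gene. Of the calls against Col-0 without a minimum fold, the 1 member in *co-SAIL* became 0 at a dispersion of 0.04 or 0.16 and 0 in limma-trend at 0.001 or 0.05. The 4 members in *35S::miP1a* became 1 at 0.04, 0 at 0.16 and 1 in limma-trend at 0.001. The 2 members in *35S::miP1b* became 1 at 0.04 or 0.16, 4 at an adjusted p below 0.05 and 0 in limma-trend at 0.001. With a minimum fold of 2 in place of 4, 2 members were called in *35S::miP1a* where 0 had been.

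The 7 other pathway genes in *35S::miP1a* became 3 at 0.04, 1 at 0.16, and 1 and 4 in limma-trend at 0.001 and 0.05. The 1 in *35S::miP1b* became 0 at 0.16, 7 at an adjusted p below 0.05, 0 among genes with at least 1 CPM, where *CYP94C1* is not tested, and 0 and 2 in limma-trend at 0.001 and 0.05. Between *35S::miP1a* and *co-SAIL*, 1 member became 0 at 0.04 or 0.16, 3 at 0.05 and 0 in limma-trend at 0.001. Between *35S::miP1b* and *co-SAIL*, 2 members became 0 at 0.16 and 0 in limma-trend at 0.001. Between *35S::miP1b* and *35S::miP1a*, 2 members became 1 at 0.16, 5 at 0.05, and 1 and 5 in limma-trend at 0.001 and 0.05.

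Leaving out 1 library at a time gave 0 to 1 members in *co-SAIL*, 2 to 3 in *35S::miP1a*, 1 to 3 in *35S::miP1b* and 0 to 1 at 4-fold in *35S::miP1a*. It gave 3 to 5 other pathway genes in *35S::miP1a* and 0 to 1 in *35S::miP1b*, and 0 to 1 members between *35S::miP1a* and *co-SAIL*, not always the same gene. Beyond the dispersions, which set the size of the error, the cause of these differences was not tested. With 2 libraries a genotype and 8 reads in the shallowest value of *AOC3*, precision is limited by the spread between libraries.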
